A study of Mus musculus with 10 samples.

Results

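The data concern 55 genes of the dividing cell, 26 that act in S phase, when DNA is copied, and 29 that act in G2 and mitosis, when the chromosomes are condensed and separated. They form a list of names whose rule has no threshold on measured values, although the list was drawn up with earlier results of these data known. Each is represented by the probe set of that gene alone with the highest mean log2 intensity over the 10 arrays. All 55 were found among the 18193 genes with a probe set of their own, and all 55 lay above the median level of the table (log2 5.78) on every array. The RNA came from invariant natural killer T (iNKT) cells, T cells that bind a CD1d tetramer (Tet+), sorted from the thymus of C57BL/6 mice at 6 weeks of age. Wild-type mice (WT) were set against Id3 knockout mice (Id3KO). Id3 binds E proteins, a family of transcription factors, and keeps them off DNA. Stage 1 cells were sorted as CD24-, CD44- and NK1.1-, and stage 2 cells as CD24-, CD44+ and NK1.1-. There were 2 arrays of WT stage 1, 3 of WT stage 2, 2 of Id3KO stage 1 and 3 of Id3KO stage 2, labelled as biological replicates, and RNA was amplified in 2 cycles before hybridisation. The labels used here do not say how many mice stand behind an array, in which cells Id3 was deleted, or what equal replicate numbers share.

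The S phase list begins with cyclin E and E2F1, which carry a cell past the start of DNA synthesis. It goes on with the factors that license and fire replication origins, the polymerase and its sliding clamp, and the enzymes that supply nucleotides. The G2/M list holds the mitotic cyclins and kinases, the spindle checkpoint and the anaphase-promoting complex, the proteins of spindle, kinetochore and cytokinesis, and proteins of chromosome structure. S phase transcripts rise at the G1 to S boundary and G2/M transcripts rise later in the cycle, so both fall in cells that leave the cycle. In the thymus, young iNKT cells divide after selection, before they settle into later stages. In RNA of a whole sorted population, fewer dividing cells and less RNA per dividing cell cannot be told apart.

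The Id3 probe set, which checks the genotype labels, read between 818 and 1289 on the 5 WT arrays and between 54.2 and 69.8 on the 5 Id3KO arrays, in the linear intensity units of the deposited table. The part of the gene that this probe set covers was not checked against the deletion. Array medians over all probe sets ran from 54.8 to 55.5. The 8 iNKT and T cell marker genes with a probe set (Cd2, Cd3d, Cd3e, Cd3g, Cd5, Gata3, Thy1, Zbtb16) lay above the median level on all 10 arrays. Their summed intensity was 12029 to 13213 in WT and 10584 to 12855 in Id3KO, a sum that holds opposite changes. Cd2 rose in Id3KO by 1.14 ± 0.18 (SE, log2) at stage 1 and 1.06 ± 0.15 at stage 2 (limma adjusted p = 0.0306 and 0.00610). Thy1 fell by 1.39 on the log2 scale at stage 2 (SE 0.17, adjusted p = 0.00385), and its difference at stage 1 was -1.02 ± 0.21 (adjusted p = 0.0842). Of the double-positive thymocyte markers, Cd4 and Cd8a were above the median level on all 10 arrays and Arpp21 on 2, while Rag1, Rag2, Cd8b1, Dntt and Ptcra were above it on none. Of the B cell markers, Cd22 was above it on 8 arrays, Pax5 on 7, Cd79b on 4 and Cd79a on 2, and Ms4a1, Ebf1 and Blnk on none. Of the thymic epithelial markers, Epcam was above it on 10 arrays, Ccl25 on 9 and Krt8 on 7. Krt5 was above it on 4, Foxn1 on 2 and Psmb11 on none. Of the erythroid markers with a probe set, Hba-a1 was above it on 4 arrays, and Alas2 and Klf1 on none. Summed over the list, the double-positive markers read 580 to 597 in WT and 537 to 592 in Id3KO, and the B cell markers 348 to 392 and 347 to 368. Cd44, the marker that separates the sort gates, read 147 and 224 in WT stage 1 against 653, 797 and 858 in WT stage 2. In Id3KO it read 130 and 255 at stage 1 against 577, 280.1 and 507 at stage 2. The arrays of the stages did not overlap in either genotype for Cd44. Cd24a, which encodes CD24, was above the median level on 3 arrays. It read 103.3 and 44.65 in WT stage 1 and 41, 45.08 and 60.88 in WT stage 2. In Id3KO Cd24a read 52.91 and 57.98 at stage 1 and 48.23, 40.24 and 47.74 at stage 2. Klrb1c, which encodes NK1.1, was above the median level on 2 arrays only, both of WT stage 2, and was kept through them. It read 61.7, 49.05 and 60.41 in WT stage 2 against 35.5, 40.58 and 35.95 in Id3KO stage 2. These values lie near or below the median level, so a test of their difference is not given.

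None of the 55 genes passed the test of any comparison between the groups. limma, with Benjamini-Hochberg adjustment over 25061 probe sets, called 0 of 26 S genes and 0 of 29 G2/M genes for Id3KO against WT at stage 1 and at stage 2, for stage 2 against stage 1 in WT and in Id3KO, and for the interaction. Over all probe sets tested, 0.802% were called for genotype at stage 1, 4.21% for genotype at stage 2, 0.016% for stage in WT, and 0% for stage in Id3KO and for the interaction. At an unadjusted p under 0.05, limma picked 2 S genes and 1 G2/M gene for genotype at stage 1, against 10.5% of all probe sets. It picked 3 and 0 for genotype at stage 2, against 16.9%, and 4 and 0 for stage in WT, against 8.06%. It picked 0 and 0 for stage in Id3KO, against 4.51%, and 3 and 0 for the interaction, against 7.07%. The widest differences lay between replicate arrays of the same group, where the G2/M genes were high or low together and the S genes spread less.

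The anaphase-promoting complex gives the clearest view of these replicates. Cdc20 activates that complex at the onset of anaphase. Its intensity was 1166 and 2230.1 in WT stage 1, 2329.8, 2275 and 965 in WT stage 2, 1397 and 1809 in Id3KO stage 1, and 2106, 2543 and 1181 in Id3KO stage 2. In each stage 2 group 1 of the 3 arrays was low. In the stage 1 groups, which hold 2 arrays, 1 has to be the lower. The groups overlapped throughout. Ube2c, the ubiquitin-conjugating enzyme of the same complex, read 145 and 325 in WT stage 1, 243, 363 and 127 in WT stage 2, 132 and 276 in Id3KO stage 1, and 358, 291 and 126 in Id3KO stage 2. The same 4 arrays were the lowest of their groups for both genes, namely replicate 1 of both stage 1 groups and replicate 3 of both stage 2 groups. Top2a, the topoisomerase that untangles sister chromatids, read 1674 and 2655 in WT stage 1, 2479.9, 2675 and 1424 in WT stage 2, 1677 and 2062 in Id3KO stage 1, and 2299, 2284 and 1582 in Id3KO stage 2. Cdk1, the kinase that drives entry into mitosis, read 396 and 575 in WT stage 1, 638, 645 and 290.04 in WT stage 2, 410.1 and 513 in Id3KO stage 1, and 601, 783 and 445 in Id3KO stage 2. Both genes had their lowest value of each group on those 4 arrays too.

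The promoter sequences of 3 of these genes and of 2 S genes are shown because the G2/M genes moved together on the arrays while the S genes spread less. Each stretch is the 150 bases before the RefSeq transcription start on GRCm38.p6, read 5′ to 3′ on the gene's own strand. Capitals mark a CHR element (TTTGAA, the cell cycle genes homology region), the CCAAT box, or an E2F site read as TTNNCGC where each N is a cytosine or a guanine. Each motif was searched for on both strands, and matches were counted also where they overlap. Cdc20 is from chr4:118437344-118437493 (minus strand), Ube2c from chr2:164769779-164769928 (plus), Cdk1 from chr10:69352913-69353062 (minus), Mcm6 from chr1:128359706-128359855 (minus) and Rrm1 from chr7:102441545-102441694 (plus).
Cdc20: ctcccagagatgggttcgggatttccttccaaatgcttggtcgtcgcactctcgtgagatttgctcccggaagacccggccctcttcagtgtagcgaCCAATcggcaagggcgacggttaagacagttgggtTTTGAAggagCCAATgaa
Ube2c: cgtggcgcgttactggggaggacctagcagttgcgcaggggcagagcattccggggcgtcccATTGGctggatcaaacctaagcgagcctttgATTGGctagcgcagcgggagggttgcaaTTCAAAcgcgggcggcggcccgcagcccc
Cdk1: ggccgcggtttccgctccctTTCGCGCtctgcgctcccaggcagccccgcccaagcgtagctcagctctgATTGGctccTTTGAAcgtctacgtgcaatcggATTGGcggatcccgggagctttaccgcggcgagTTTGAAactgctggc
Mcm6: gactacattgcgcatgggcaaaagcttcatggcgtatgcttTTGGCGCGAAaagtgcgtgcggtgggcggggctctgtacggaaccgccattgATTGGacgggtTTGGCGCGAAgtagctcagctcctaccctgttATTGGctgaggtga
Rrm1: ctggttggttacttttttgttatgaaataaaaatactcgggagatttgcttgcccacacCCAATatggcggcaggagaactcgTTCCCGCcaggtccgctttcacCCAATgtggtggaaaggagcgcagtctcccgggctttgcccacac
Cdc20 and Ube2c each hold a CHR element close to the start, with its first base at -18 and -29 relative to the start. Cdk1 holds 2, at -71 and -15, beside an E2F form. Mcm6 holds E2F forms on both strands that overlap in 2 places, and Rrm1 holds 1 at -67. The stretches shown are not typical of their lists. Within the same 150 bases most G2/M genes with a window lack a CHR element, such as Aurka and Plk1. Most S genes with a window lack an E2F form there, such as Pcna and Tk1.

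Among the 24 G2/M genes with a RefSeq window of 300 bases, from 250 before to 50 after the start, 18 held a CHR element, or 75.0%, against 13.6% of 22 S genes and 18.1% of 27025 genes. An E2F form stood in 13 of 22 S windows, or 59.1%, in 6 of 24 G2/M windows and in 9.7% of all. A CCAAT box was found in 83.3% of the G2/M windows, in 63.6% of the S windows and in 37.9% of all. The E box forms CAGCTG and CAGGTG, the kind bound by the E proteins that Id3 inhibits, were found in 20.8% of the G2/M windows and 22.7% of the S windows, against 32.6% of all. These are matches of letters, and binding was not measured. Where a gene has several windows the first was used, and the other 9 members had no window in the table.

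**Figure D1:**
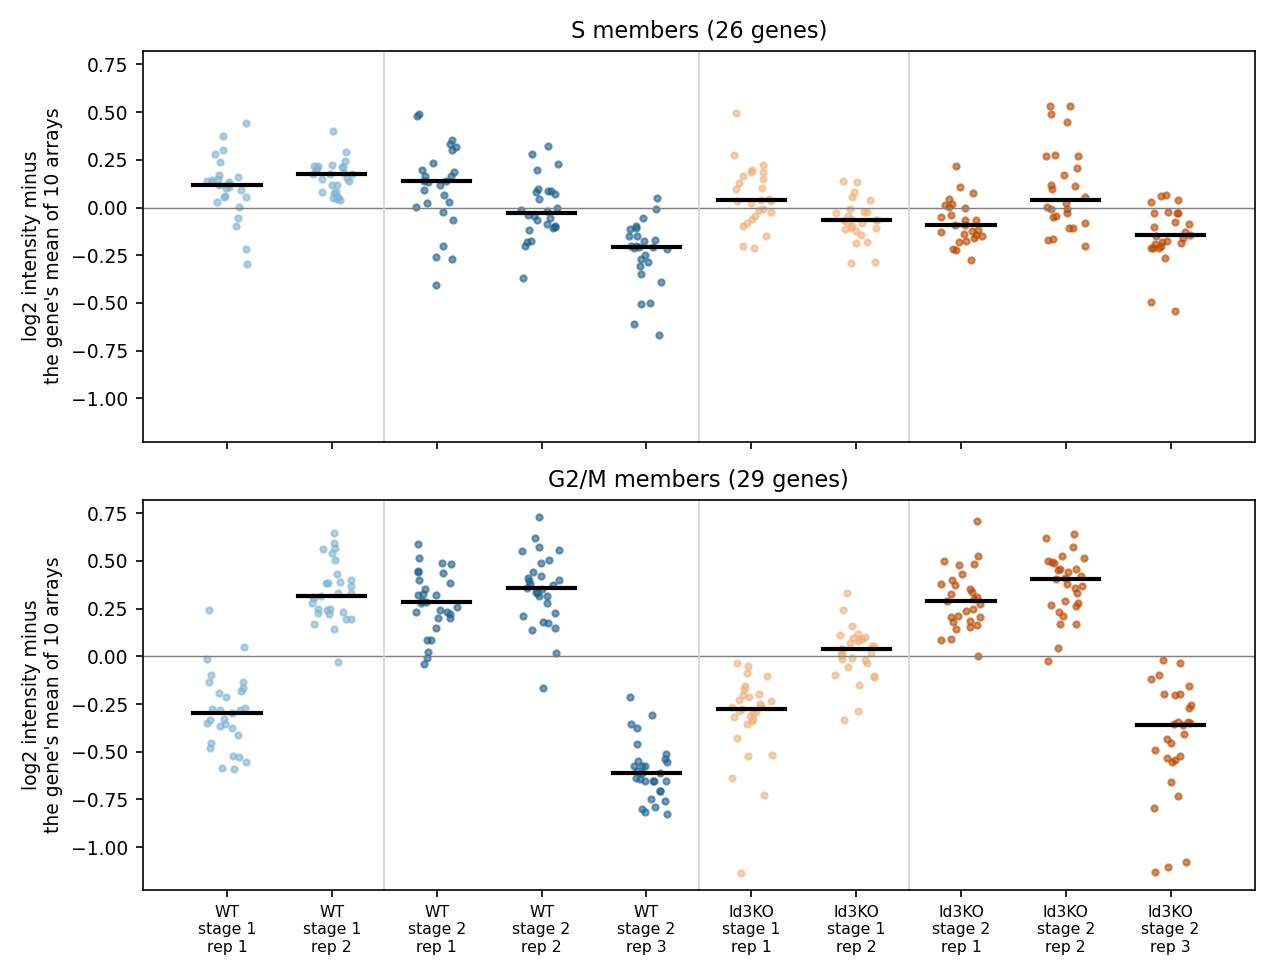
Deviation of each member from its own mean over the 10 arrays (log2 intensity, vertical axis) on each array (horizontal axis), with 1 point per gene, the list's median as a bar, and colour for the 4 groups. The G2/M medians run from -0.61 to 0.41, while the S medians stay between -0.21 and 0.17. The G2/M median is lowest on replicate 3 of both stage 2 groups. It is lower on replicate 1 of both stage 1 groups, which hold 2 arrays each.

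As a list, the G2/M genes had a median deviation from their own means of -0.30 and 0.32 on the 2 WT stage 1 arrays, as log2 intensity. It was 0.29, 0.36 and -0.61 in WT stage 2, -0.28 and 0.04 in Id3KO stage 1, and 0.29, 0.41 and -0.36 in Id3KO stage 2. All 29 genes were lowest on replicate 3 of WT stage 2 among its 3 arrays, and all 29 were lowest on replicate 3 of Id3KO stage 2. Over all 25061 probe sets, 31.7% and 35.3% were lowest on those arrays. At stage 1, 27 of 29 were lower on replicate 1 than on replicate 2 in WT and 27 of 29 in Id3KO, against 50.1% and 54.3% of all probe sets. The exceptions were Kif11 and Ttk in WT and Kif11 and Kif23 in Id3KO. The medians of all probe sets on the same arrays lay between -0.01 and 0.00. RMA brings the arrays to a common level, so these medians could not show a shift of whole arrays. In fold terms the G2/M level differed between the highest and the lowest replicate by 1.53 in WT stage 1, 1.95 in WT stage 2, 1.24 in Id3KO stage 1 and 1.70 in Id3KO stage 2. Whether sorting, the animals or RNA handling differed between these arrays was not tested.

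The S genes had list medians of 0.12 and 0.17 in WT stage 1, 0.14, -0.03 and -0.21 in WT stage 2, 0.04 and -0.07 in Id3KO stage 1, and -0.09, 0.04 and -0.15 in Id3KO stage 2. Replicate 3 of WT stage 2 was again the lowest, for 21 of 26 genes, and in Id3KO stage 2 replicate 3 was the lowest for 14 of 26. In Id3KO stage 1 the lists ran in opposite directions, since 21 of 26 S genes were lower on replicate 2, where 27 of 29 G2/M genes were higher. The level of the S list differed between highest and lowest replicate by 1.04-fold in WT stage 1, 1.27-fold in WT stage 2, 1.07-fold in Id3KO stage 1 and 1.14-fold in Id3KO stage 2. Pooled over the 4 groups, the SD of the list level between replicates was 0.44 for G2/M and 0.12 for S on the log2 scale.

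**Figure D2:**
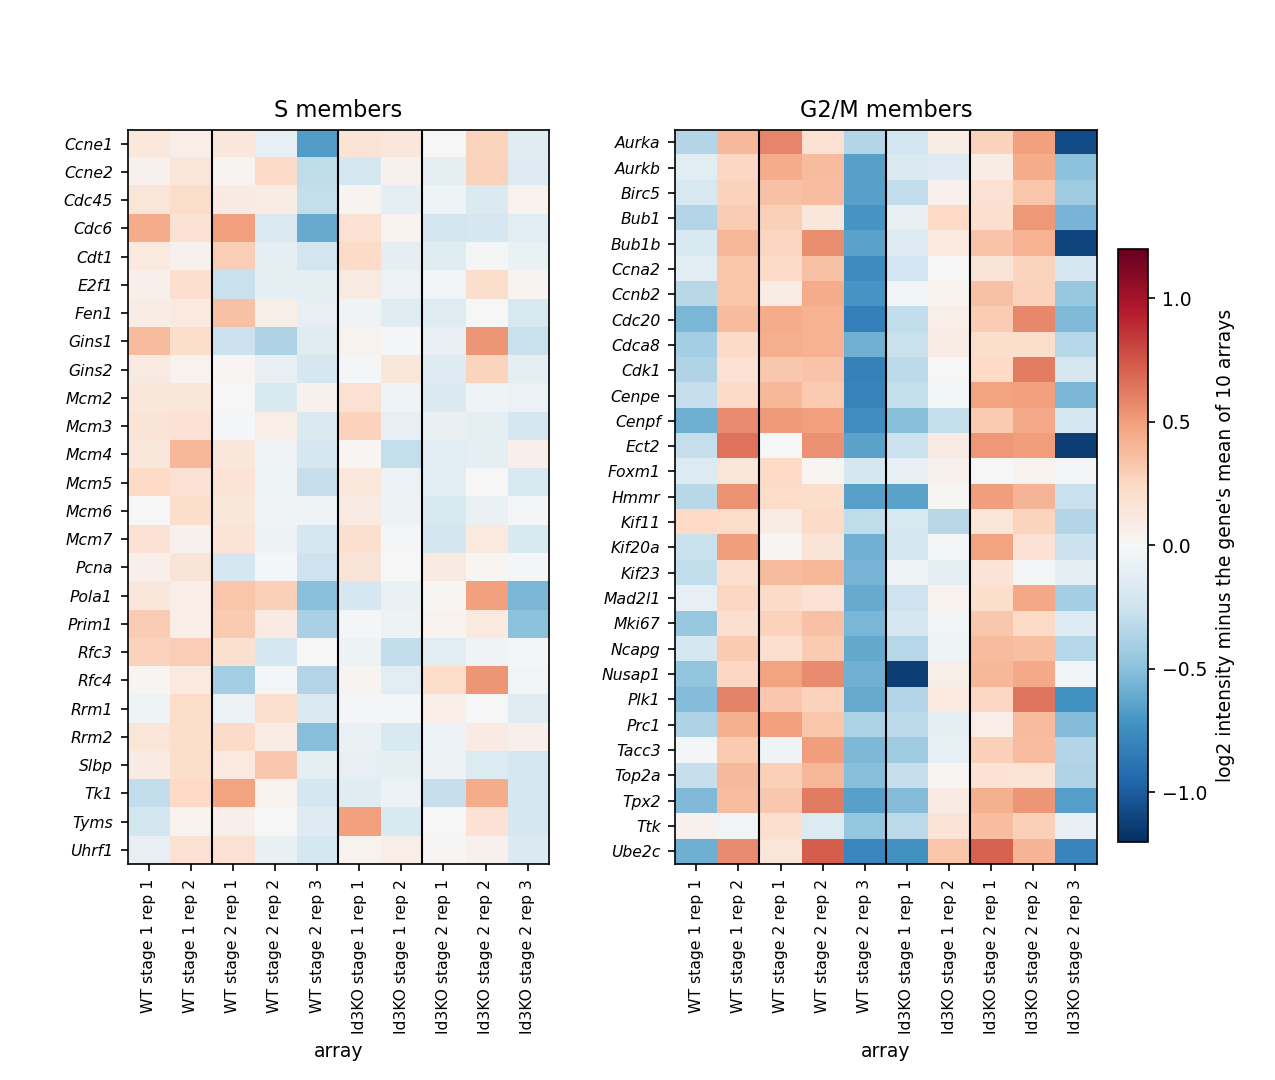
Heat map of the 26 S genes (left) and 29 G2/M genes (right), 1 row per gene and 1 column per array, coloured by log2 intensity minus the gene's mean of 10 arrays, with black lines between groups. On replicate 3 of WT stage 2 and of Id3KO stage 2 all 29 G2/M genes lie below their means, Foxm1 in Id3KO at only -0.02. Most S rows are paler, with exceptions such as Cdc6 and Pola1.

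The spread between replicates differed between the lists, although single genes overlapped. The SD between replicates, pooled over the 4 groups with 6 degrees of freedom, had a median of 0.46 (log2) over the G2/M genes and 0.16 over the S genes, against 0.15 over all 25061 probe sets. For the 12121 probe sets whose mean level lies in the same range as that of the G2/M genes the median was 0.16. Of the 29 G2/M genes, 26 lay above the 95th percentile of all probe sets, an SD of 0.35, and of the 26 S genes 1 did, Pola1. The widest were Ube2c with 0.78, Ect2, the exchange factor that starts the cleavage furrow, with 0.71, and Bub1b, a checkpoint kinase of the kinetochore, with 0.64. Bub1b read 493 and 739 in WT stage 1, 669, 823 and 359 in WT stage 2, 502 and 606 in Id3KO stage 1, and 707, 748 and 260.02 in Id3KO stage 2. The replicates of each stage 2 group lay further apart than the means of any 2 groups.

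The narrowest G2/M genes were Foxm1, the transcription factor of the G2/M programme, with an SD of 0.17, the spindle motor Kif11 with 0.25 and the checkpoint kinase Ttk with 0.28. Foxm1 read 108 and 134 in WT stage 1, 143, 123 and 105 in WT stage 2, 113 and 126 in Id3KO stage 1, and 121, 125 and 119 in Id3KO stage 2. A probe set that the annotation assigns to Foxm1 together with other genes, with a mean log2 of 6.88 against 6.92 for the one used, was left out. Of the S genes, Pcna, the sliding clamp of the polymerase, was the narrowest with 0.10, and Pola1, the catalytic subunit of DNA polymerase alpha, the widest with 0.40. Pola1 read 144 and 139 in WT stage 1, 166, 160.04 and 93.1 in WT stage 2, 114 and 124 in Id3KO stage 1, and 133, 185 and 90.2 in Id3KO stage 2. Its lowest values fell on replicate 3 of both stage 2 groups, where the G2/M genes were low.

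**Figure D3:**
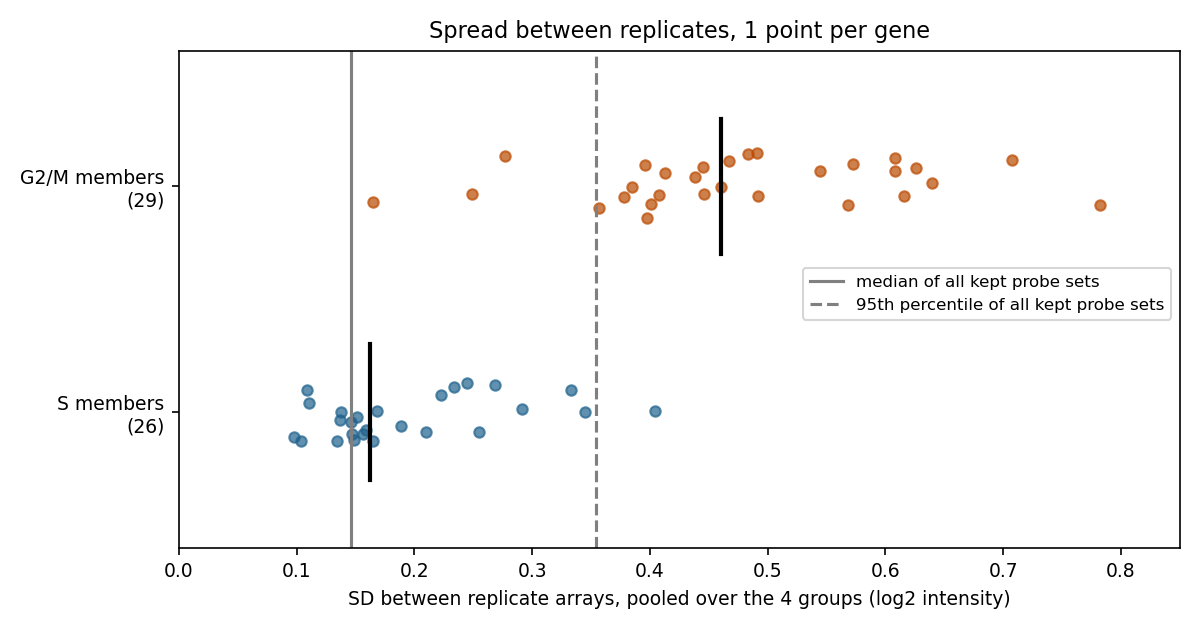
SD between replicate arrays for each gene, pooled over the 4 groups (log2 intensity, horizontal axis), for S and G2/M genes, with the list median as a black bar and grey lines for the median and 95th percentile of all 25061 probe sets. Of the G2/M genes 26 of 29 lie right of the 95th percentile, and of the S genes 1 of 26.

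By role, the spread was widest for the checkpoint and anaphase-promoting complex group (Cdc20, Ube2c, Bub1, Bub1b, Mad2l1, Ttk), with a median SD of 0.55. It was 0.54 for the spindle and kinetochore group (Tpx2, Hmmr, Tacc3, Nusap1, Cenpe, Cenpf, Kif11), 0.48 for the cyclins, kinases and their activators (Ccna2, Ccnb2, Cdk1, Plk1, Aurka, Foxm1) and 0.45 for the passenger complex and cytokinesis group (Aurkb, Birc5, Cdca8, Kif20a, Kif23, Prc1, Ect2). Top2a, the condensin subunit Ncapg and Mki67, a protein of the chromosome surface in dividing cells, had 0.40. The S groups had medians of 0.16 for licensing and origin firing, 0.18 for polymerase, clamp and clamp loader, 0.24 for nucleotide supply and 0.22 for Ccne1, Ccne2 and E2f1. Slbp, the histone message binding protein, and Uhrf1, which brings the maintenance methyltransferase to copied DNA, had 0.16 or less. Every G2/M role group had its lowest median of WT stage 2 and of Id3KO stage 2 on replicate 3. That follows from all 29 genes being lowest there, and says nothing about roles.

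The first genotype question is whether loss of Id3 altered these genes at stage 1. The median log2 difference of Id3KO minus WT was -0.11 over the S genes, with 23 of 26 below 0, and -0.17 over the G2/M genes, with 25 of 29 below 0. The median over all probe sets was -0.01. The S median was -0.19 without replicate 1 of Id3KO stage 1 and -0.17 without replicate 1 of WT stage 1. Among the S genes 11 had lower values on both Id3KO arrays than on both WT arrays, or 42.3%, against 22.8% of all probe sets, and Ccne1 alone was higher on both, against 18.7%. Among the G2/M genes 3 were lower on both, Aurkb, Kif11 and Tacc3. With 2 arrays a group, such separation is common in these data.

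The lowest S genes at stage 1 were Rfc3, a subunit of the clamp loader, Mcm4, part of the replicative helicase, and Rrm2, the regulated subunit of ribonucleotide reductase. Rfc3 read 126 and 127 in WT stage 1 against 99.9 and 85.1 in Id3KO stage 1, a log2 difference of -0.46 ± 0.13 (SE, limma adjusted p = 0.228). Mcm4 read 1918 and 2306 against 1778 and 1435, a difference of -0.40 ± 0.15 (adjusted p = 0.401), and Rrm2 differed by -0.32 ± 0.21. The groups did not overlap for these genes, and the differences did not pass the test. The highest were Tyms, which makes thymidylate, with 0.24 ± 0.21, Ccne1 with 0.05 ± 0.23 and Uhrf1 with 0.02 ± 0.15. The Tyms probe set of that gene alone was dim, between 55.4 and 90.7 on the 10 arrays, and a brighter probe set shared by 2 genes was not used.

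The lowest G2/M gene at stage 1 was Kif11, which read 138 and 136 in WT stage 1 against 102 and 92.5 in Id3KO stage 1, a difference of -0.50 ± 0.22 (limma adjusted p = 0.472). Hmmr, a spindle protein that binds hyaluronan, followed with -0.42 ± 0.41 and Nusap1, which bundles spindle microtubules, with -0.41 ± 0.47. Both overlapped between the groups, and the replicates of WT stage 1 and those of Id3KO stage 1 each lay apart by more than the difference. The highest were the checkpoint kinase Bub1 with 0.10 ± 0.41, Mki67 with 0.01 ± 0.32 and Cdca8, a subunit of the chromosomal passenger complex, with 0.00 ± 0.37. The spindle and kinetochore group stood lowest, with all 7 genes below 0 and a median of -0.41, and none of the 7 passed the test. The median of the whole G2/M list rested on single arrays. It was -0.46 without replicate 1 of WT stage 1 and 0.16 without replicate 2 of that group, and -0.33 without replicate 2 of Id3KO stage 1 and 0.01 without its replicate 1.

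At stage 2, where 3 arrays stand in each genotype, the median difference was -0.04 over the S genes, with 16 of 26 below 0, and 0.10 over the G2/M genes, with 20 of 29 above 0. Over the 27 other kept probe sets of the S genes the median was -0.06, and over the 26 of the G2/M genes it was 0.003. The median over all probe sets was 0.01. The S median was -0.13 without replicate 3 of WT stage 2, and turned to 0.06 without replicate 1 of that group and to 0.02 without replicate 3 of Id3KO stage 2. Rfc4, another subunit of the clamp loader, was the highest S gene. It read 173, 227 and 181 in WT against 267, 332 and 225 in Id3KO, a difference of 0.50 ± 0.15 (limma adjusted p = 0.125), and the groups overlapped by a narrow margin. Gins1, a helicase component, followed with 0.32 ± 0.18 and Ccne1 with 0.25 ± 0.19. E2f1 was the only S gene with no overlap, at 90.9, 101 and 102 in WT against 107, 126 and 112 in Id3KO, or 3.85% of the S genes against 10.9% of all probe sets. The lowest were Slbp with -0.26 ± 0.11, the flap endonuclease Fen1 with -0.22 ± 0.11 and the primase subunit Prim1 with -0.12 ± 0.21.

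Among the G2/M genes at stage 2, Ttk was the highest with 0.33 ± 0.20 (limma adjusted p = 0.471), followed by Hmmr with 0.29 ± 0.34 and Cdk1 with 0.27 ± 0.33. Ttk read 111, 86.1 and 70.3 in WT against 125, 118 and 90.3 in Id3KO. The lowest were the mitotic kinase Aurka with -0.24 ± 0.41, Bub1b with -0.17 ± 0.44 and Prc1, which organises the central spindle, with -0.17 ± 0.31. All 29 genes overlapped between the genotypes, while 10.9% of all probe sets were without overlap and higher in Id3KO, and 10.5% lower. The list median was -0.25 without replicate 3 of WT stage 2 and 0.35 without replicate 3 of Id3KO stage 2, the low arrays of the respective groups. Each of the other 4 arrays of stage 2, left out in turn, gave a median between -0.05 and 0.28. For the interaction, the genotype difference at stage 2 minus that at stage 1, Rfc4 was the highest S gene, with 0.62 ± 0.24 (adjusted p = 0.698), then Gins1 with 0.60 ± 0.29 and Rrm2 with 0.41 ± 0.27. Tyms with -0.23 ± 0.28, the licensing factor Cdt1 with -0.06 ± 0.22 and Mcm7 with -0.03 ± 0.20 were the lowest. Of the G2/M genes, Hmmr with 0.70 ± 0.53, the spindle protein Tacc3 with 0.54 ± 0.44 and Nusap1 with 0.53 ± 0.61 were the highest. Aurka with -0.16 ± 0.65, Cdca8 with -0.07 ± 0.48 and Bub1b with -0.04 ± 0.69 were the lowest.

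**Figure D4:**
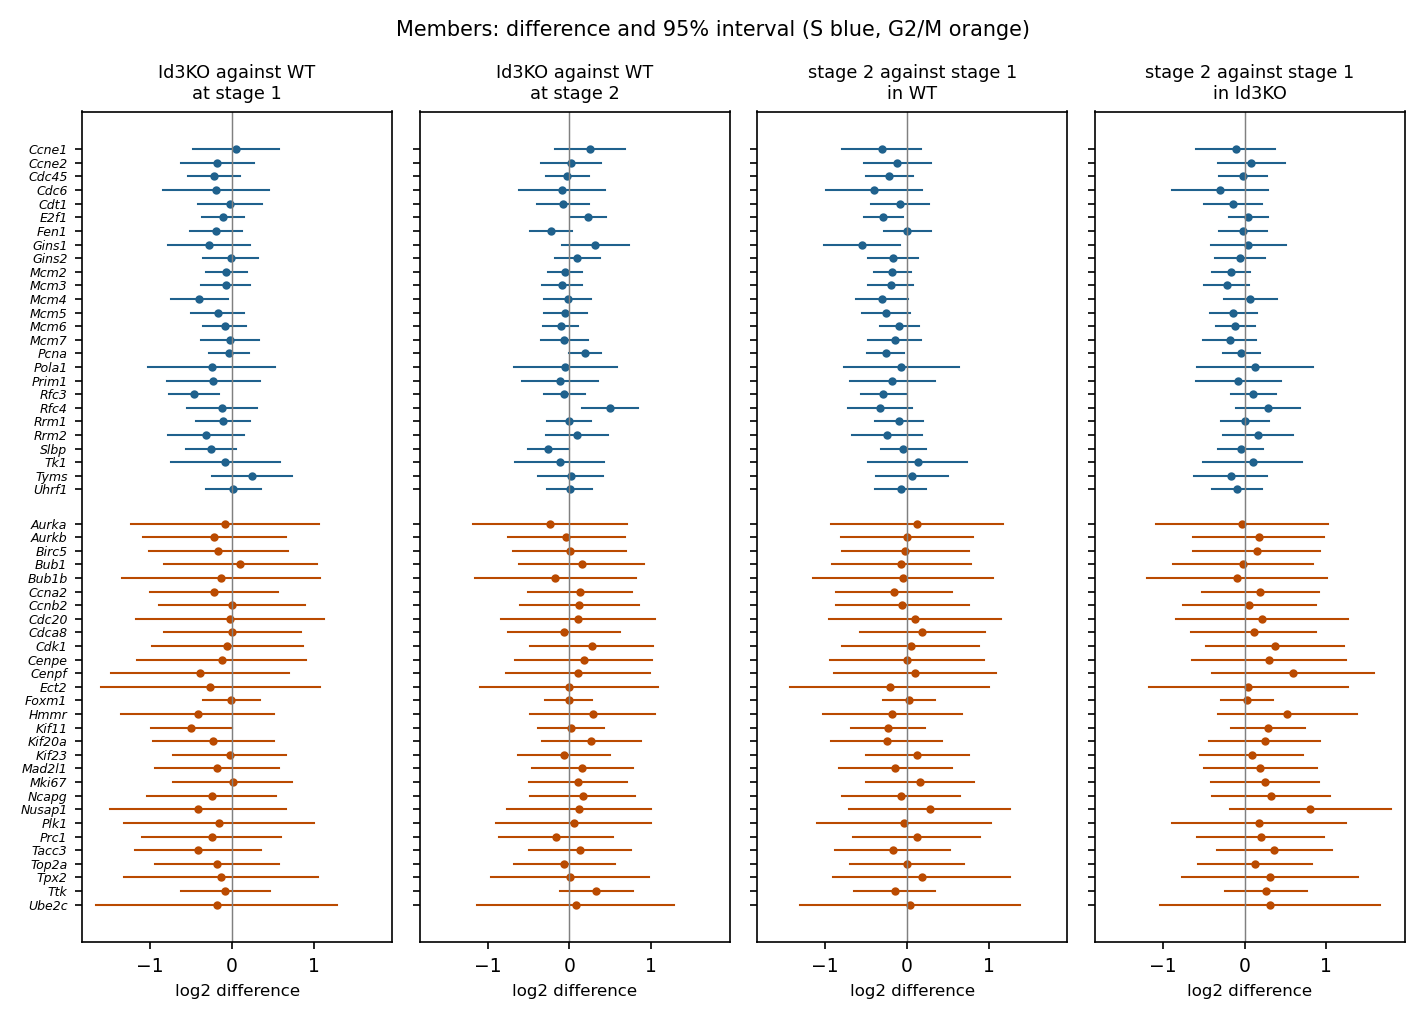
Log2 difference (horizontal axis) with its 95% interval for each member in 4 comparisons, S genes in blue and G2/M genes in orange. The S intervals are short and the G2/M intervals long, with a median distance from estimate to bound at stage 2 of 0.28 and 0.72.

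The stage comparison in WT asks how these genes differ between CD44- and CD44+ cells. The S genes had a median of -0.18 for stage 2 minus stage 1, with 23 of 26 below 0, while the G2/M genes had a median of 0.00, with 15 of 29 below 0. The median over all probe sets was -0.01. The S median was -0.07 without replicate 3 of WT stage 2, and the G2/M median ran from -0.32 without replicate 1 of WT stage 1 to 0.30 without replicate 3 of WT stage 2. The arrays of the stages did not overlap for 10 S genes, all lower at stage 2 (Cdc45, E2f1, Gins1, Gins2, Mcm2, Mcm3, Mcm5, Pcna, Rfc3, Rfc4), or 38.5%, against 14.4% of all probe sets. Of these, 6 act in licensing and origin firing, a group whose 11 genes all lay below 0 with a median of -0.20. Gins1 read 280.5 and 250.1 at stage 1 against 181, 167 and 195 at stage 2, a difference of -0.55 ± 0.20 (limma adjusted p = 0.548). E2f1 read 114 and 126 against 90.9, 101 and 102, a difference of -0.29 with an adjusted p of 0.543, the smallest of the list. Cdc6, which loads the helicase, followed Gins1 with -0.41 ± 0.26, and Rfc4 with -0.33 ± 0.17. The highest were thymidine kinase Tk1 with 0.13 ± 0.27, Tyms with 0.06 ± 0.20 and Fen1 with 0.00 ± 0.13. None passed the test, and only 4 of 25061 probe sets were called in this comparison.

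In the G2/M list the WT stage difference was highest for Nusap1 with 0.28 ± 0.43, Cdca8 with 0.18 ± 0.34 and Tpx2, an activator of Aurka on the spindle, with 0.18 ± 0.48. It was lowest for the kinesin Kif20a with -0.25 ± 0.30, Kif11 with -0.23 ± 0.20 and Ect2 with -0.21 ± 0.54. In Id3KO the stage medians were -0.04 for S, with 16 of 26 below 0, and 0.20 for G2/M, with 26 of 29 above 0. The G2/M median rested on single arrays, at 0.05 without replicate 1 of Id3KO stage 1, 0.33 without replicate 2 of that group and 0.45 without replicate 3 of Id3KO stage 2. The S median was -0.13 without replicate 2 of Id3KO stage 2 and 0.01 without replicate 1 of Id3KO stage 1. Rfc4 with 0.28 ± 0.17, Rrm2 with 0.17 ± 0.19 and Pola1 with 0.13 ± 0.31 were the highest S genes, and Cdc6 with -0.30 ± 0.26, Mcm3 with -0.22 ± 0.12 and Mcm7 with -0.18 ± 0.14 the lowest. Rrm2 was without overlap and higher at stage 2, against 9.45% of all probe sets, and Cdc6 and Mcm2 were without overlap and lower, against 8.91%. Nusap1 with 0.80 ± 0.43, the kinetochore protein Cenpf with 0.59 ± 0.44 and Hmmr with 0.52 ± 0.38 were the highest G2/M genes, and Bub1b with -0.10 ± 0.49, Aurka with -0.04 ± 0.46 and Bub1 with -0.02 ± 0.38 the lowest. Nusap1 read 140.2 and 323 at stage 1 against 405, 420.1 and 301 at stage 2, so its difference rested on 1 low array of stage 1. Cenpf read 176 and 206 against 311, 345 and 219 and was the only G2/M gene without overlap.

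The spread sets what these arrays could show. At stage 2 the 95% interval of the genotype difference lay within 2-fold in either direction for 26 of 26 S genes and within 1.5-fold for 19. For the G2/M genes it lay within 2-fold for 20 of 29 and within 1.5-fold for 2. At stage 1, with 2 arrays a group, it lay within 2-fold for 25 of 26 S genes and 11 of 29 G2/M genes. The median distance from estimate to bound of the G2/M genes was 1.64-fold at stage 2 and 1.84-fold at stage 1. These intervals are not adjusted for the number of genes, and genes differed in width. The stage 1 interval of Kif11 lay away from 0, and those of the other 28 G2/M genes held 0.

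Other genes of both phases resembled the members in part. Of 42 further S phase genes 40 lay below 0 for stage 2 minus stage 1 in WT, with a median of -0.19. For genotype at stage 2 their median was 0.10, with 29 of 42 above 0, where the S members had 10 of 26 above 0. Of 58 further G2/M genes 55 were lowest on replicate 3 of WT stage 2 and 46 on replicate 3 of Id3KO stage 2. Their SD between replicates had a median of 0.30, and 23 of 58, or 39.7%, lay above the 95th percentile of all probe sets, against 89.7% of the G2/M members. limma called none of the 100 in any comparison. At an unadjusted p under 0.05 it picked 2 and 1 of these S and G2/M genes for genotype at stage 1, 2 and 2 at stage 2, 2 and 2 for stage in WT, 1 and 2 for stage in Id3KO, and 3 and 3 for the interaction. All of these are smaller shares than the 10.5%, 16.9%, 8.06%, 4.51% and 7.07% of all probe sets picked in the same comparisons, with the exception of the 3 of 42 S genes for the interaction. Among the lists of cycle genes, those of regulators held the only calls, all for genotype at stage 2. There limma called 2 of 8 G1 cyclins and kinases, 2 of 19 inhibitors and quiescence factors and 1 of 12 E2F factors and partners. The share over all probe sets in that comparison was 4.21%. These lists were chosen with earlier results of these data known, so the counts describe them only.

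**Figure D5:**
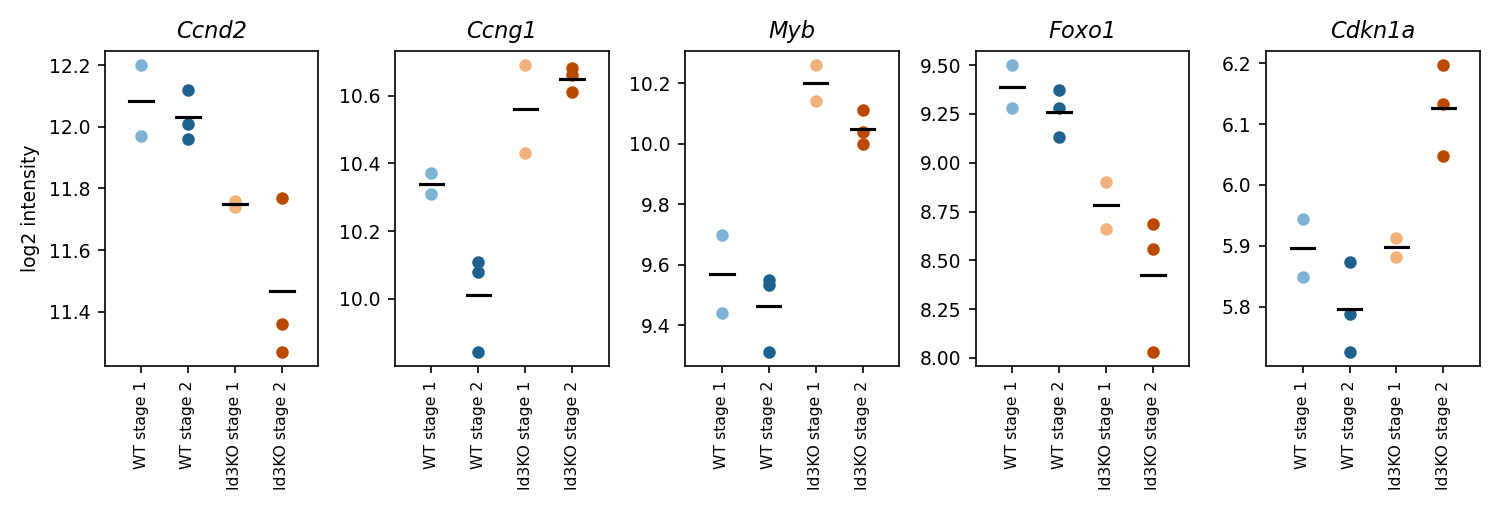
Log2 intensity of the 5 called cycle regulators on each array (points) with group means (bars), by genotype and stage; the vertical axes differ and do not start at 0. At stage 2 the WT and Id3KO arrays do not overlap for any of the 5 genes, which were picked by a test on these arrays.

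Ccng1, cyclin G1, a target of p53, rose in Id3KO at stage 2. It read 919, 1103 and 1082 in WT against 1637, 1613 and 1559 in Id3KO, a log2 difference of 0.64 ± 0.10 (limma adjusted p = 0.00854). Myb, a transcription factor of thymocyte and progenitor proliferation, read 749, 636 and 740.2 against 1027, 1107 and 1056 and rose by 0.59 ± 0.10 (adjusted p = 0.0124). At stage 1 Myb read 830.1 and 694 against 1228 and 1129, a difference of 0.63 ± 0.12 that did not pass the test (adjusted p = 0.0591). Foxo1, a transcription factor of quiescence, read 561, 623 and 663 against 377, 262 and 411 and fell by 0.84 on the log2 scale (SE 0.17, adjusted p = 0.0278). Ccnd2, a D-type cyclin that drives G1, read 3997, 4131 and 4450.0 against 2624, 2467 and 3486 and fell by 0.57 on the log2 scale (SE 0.13, adjusted p = 0.0483). Cdkn1a, the p21 inhibitor and another p53 target, was near the median level, at 58.6, 52.9 and 55.3 against 70.2, 73.4 and 66.2, and rose by 0.33 ± 0.07 (adjusted p = 0.0427). At stage 2 the WT and Id3KO arrays did not overlap for any of the 5. The genes were picked by a test on these same arrays, so this adds no support. Of all probe sets, 10.9% were without overlap and higher in Id3KO at stage 2, and 10.5% lower. The calls for Ccng1 and Myb held in all 20 alternatives tried, with adjusted p up to 0.0321 and 0.0468. Foxo1 lost its call in 4 of 20, with adjusted p of 0.0899 without replicate 2 of WT stage 2, 0.107 without its replicate 3 and 0.0511 without replicate 1 of Id3KO stage 2. Ccnd2 lost its call in 11 of 20 and Cdkn1a in 13 of 19, with adjusted p up to 0.160 and 0.175. Leaving out any 1 of the 10 arrays ended the call for Cdkn1a, and so it did for Ccnd2 with the exception of replicate 3 of Id3KO stage 2, the array with the highest Id3KO value. The Ccnd2 and Myb probe sets carry the x suffix, by which the manufacturer marks probes that may also match other sequences, as do those of 6 members. The summed intensity of the 8 myeloid markers was 461 to 556 in Id3KO stage 2 against 428 to 440.0 in WT stage 2, with Fcer1g and Csf1r above the median level on all 10 arrays, Lyz2 on 2, Cd68 on 1, and Itgam, Cebpa, Itgax and Csf3r on none. Fcer1g differed by 0.74 ± 0.21 at stage 2 without overlap of the arrays (adjusted p = 0.0980). The part of such cells in these calls was not tested.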

How the data were processed

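The 10 Affymetrix arrays hold amplified RNA of sorted thymic iNKT cells. The authors deposited linear intensity values per probe set (29.0 to 15399), for which the submitters' processing notes name RMA without a version. Log2 was taken here, although values on the log2 scale had been expected. Array number, not depth, limits precision. Probe sets above log2 5.78, the table's median, on at least 2 arrays were kept (25061 of 45037). Groups came from the labels. A model with 1 mean for each group was fitted by limma 3.58.1 under R 4.3.3 (6 residual and 2.80 prior degrees of freedom, two-sided), with 5 contrasts and Benjamini-Hochberg adjustment over the kept probe sets, and calls have an adjusted p under 0.05. The pipeline was tested on simulated data. The members and lists were chosen with earlier results of these data known. Named genes are Id3, then in each contrast and list every called member and the 3 highest and 3 lowest differences, members as examples of their role, and called genes of the other lists. Of the 55 members 42 have several probe sets. For genotype at stages 1 and 2 and stage in WT and Id3KO, their other kept probe sets had S medians of -0.11, -0.06, -0.17 and -0.08. The G2/M medians of these probe sets were -0.12, 0.003, 0.07 and 0.12. Promoter windows came from RefSeq on GRCm38.p6 for 46 members. P-values cover the spread between these arrays only. Alternatives were other filters, normalizations, priors, weights and probe set choices, a replicate block, only the arrays compared, averages over stages or genotypes, and each array left out.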

Additional observations from a re-analysis of the deposited data

How the results depend on the processing

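The settings tried gave 392 values for 20 results. No S or G2/M gene was called under any setting, and every list median stayed within 1 SD between replicates of its main value. That SD was 0.44 for G2/M and 0.12 for S, so a G2/M median could change sign and still stay within it. Of the medians, 19 changed sign, and medians were not tested. The S median for stage in WT kept its sign in all 19 settings, from -0.24 without replicate 1 of WT stage 2 to -0.07 without replicate 3. The S median for genotype at stage 1 ran from -0.19 to -0.08. The smallest adjusted p of any S gene at stage 2 was 0.0614 over the settings. G2/M medians for the interaction ran from -0.15 to 0.51. Averages of genotype over the stages and of stage over the genotypes, added after the data were seen, called no member. Over all kept probe sets, deviations of arrays of equal number in different groups had r from -0.31 to 0.13 (13 pairs, 2 above 0.1). In a group of 2 arrays the deviations from the mean are mirror images, so these values are not independent and cannot exclude pairing. The highest r was that of replicate 3 of WT stage 2 with replicate 3 of Id3KO stage 2. The numbers were not taken as pairs. The G2/M genes were nevertheless low on replicate 1 of both stage 1 groups and replicate 3 of both stage 2 groups. With a replicate block 0 members were called, and the G2/M median was 0.30 for stage in WT and 0.45 for stage in Id3KO, and the S median 0.03 for stage in Id3KO. The block ended the call for Cdkn1a (adjusted p = 0.0940) and left those of the other 4 regulators.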
